A study of Mus musculus with 3 samples.

Results

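The transcripts of 9 genes of the CCN family and of the YAP/TAZ pathway (*Ccn1*, *Ccn2*, *Ccn4*, *Ccn5*, *Yap1*, *Wwtr1*, *Tead1*, *Amotl2* and *Ajuba*) were followed through the cell classes of the mouse larynx. They are 9 of 33696 features in the count tables, and each symbol was found once. The members were chosen by the measured *Ccn2* values: *Ccn2* led a cluster of cells seen in libraries 1 and 2 only, and its pattern over libraries and classes is therefore a description, with no test. The data were single-cell RNA sequencing of 3 libraries of a single condition. Each library came from the pooled larynges of 10 Lrig1CreERT2/+; ROSA26 CAG-LSL-tdTomato/+ mice, 5 male and 5 female, on a C57BL/6J background. Tamoxifen was injected on 2 consecutive days, larynges were taken 1 day after recombination, and the dissociated cells were sorted for tdTomato. The Cre of these mice is made from the *Lrig1* locus, so that cells expressing *Lrig1* at the time of tamoxifen switch on the red reporter for good. Every library therefore holds labelled cells only, with no unlabelled library to compare, and each mouse carries the Cre on 1 *Lrig1* allele. The age of the mice is not given in the sources used here. The library is the replicate (n = 3), and a p-value measures the spread between these 3 pools. Some fits pair the groups of cells of 1 pool, with the library as a block. Their p-values measure the spread of the paired difference over the pools.

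CCN proteins are secreted, cysteine-rich proteins that sit in the extracellular matrix and bind integrins and growth factors. *Ccn1* and *Ccn2* are the best known target genes of YAP and TAZ, the transcriptional coactivators that the Hippo kinases keep out of the nucleus. When the kinases are inactive, as in spread or stretched cells, YAP (encoded by *Yap1*) and TAZ (*Wwtr1*) enter the nucleus and act through TEAD factors such as *Tead1*. *Amotl2* encodes an angiomotin that holds YAP at junctions and is itself a YAP target gene, and *Ajuba* encodes a LIM protein that restrains the LATS kinases at adherens junctions. Laryngeal epithelium and lamina propria are strained by airflow and vibration, which makes these genes of interest in this tissue. Nuclear YAP and TAZ proteins were not measured, and a transcript level of *Yap1* or *Wwtr1* does not report them.

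TEAD factors bind the letters CATTCC, or GGAATG on the other strand. The promoters of *Ccn1* and *Amotl2*, known as YAP target genes in many tissues, are printed because their windows hold these letters and both genes are described further on. Each run holds the 250 bases before the annotated start of the canonical transcript in GRCm39, read 5′ to 3′ on the strand of the gene, with the TEAD letters in capitals. *Ccn1* is read from chr3:145355739-145355988 on the reverse strand, and *Amotl2* from chr9:102594617-102594866 on the forward strand.
Ccn1: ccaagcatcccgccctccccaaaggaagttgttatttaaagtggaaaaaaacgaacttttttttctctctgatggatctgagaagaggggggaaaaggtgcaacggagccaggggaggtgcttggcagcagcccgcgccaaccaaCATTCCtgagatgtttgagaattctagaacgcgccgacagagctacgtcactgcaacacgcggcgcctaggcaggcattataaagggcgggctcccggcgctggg
Amotl2: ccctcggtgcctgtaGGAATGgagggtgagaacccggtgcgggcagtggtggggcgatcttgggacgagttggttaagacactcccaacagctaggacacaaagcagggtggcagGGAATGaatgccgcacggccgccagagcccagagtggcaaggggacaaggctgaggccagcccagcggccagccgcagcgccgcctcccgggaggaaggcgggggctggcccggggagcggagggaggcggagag
The *Amotl2* window held the letters 2 times, starting 235 and 135 bases before the start, and that of *Ccn1* held them 1 time, at 105 bases. *Yap1* (77 bases), *Wwtr1* (218) and *Tead1* (193) held 1 match each, and *Ccn4*, *Ccn5* and *Ajuba* held none in this window. Of 21770 promoters of protein-coding genes of the same length, 12.1% held the letters on either strand. The AP-1 letters TGANTCA, which read the same on both strands, occurred in 6.17% of these promoters and in none of the 8 windows named here. A match is a run of letters and was not tested as a binding site.

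Cells were placed in classes by counting unique molecular identifiers (UMIs, each standing for 1 captured transcript) of marker genes that include no member. The libraries held 10816 to 31646 barcodes, of which 13222, 7201 and 24119 cells of libraries 1, 2 and 3 remained after quality limits and doublet removal, with medians of 10552, 14010 and 10347 UMIs. Of these, 23129 cells passed the gate for epithelium and 4315 that for fibroblasts. *Epcam*, *Pdgfra*, *Pax7* and *Pecam1* are markers of the gates themselves, so their levels describe the gates and are no independent check of the labels. *Epcam*, a surface protein of epithelium, stood at 469, 431 and 613 counts per 1000000 UMIs (CPM) in basal-gated cells and at 5.48 to 15.0 CPM in fibroblast-gated cells. *Pdgfra*, a receptor of fibroblasts, stood at 678, 542 and 596 CPM in fibroblast-gated and at no more than 1.18 CPM in basal-gated cells. *Pax7* marked satellite-gated cells, the stem cells of muscle, at 553 to 838 CPM, and *Pecam1* marked endothelial-gated cells at 1578 to 2154 CPM. The basal and secretory gates shared markers, since *Krt5*, a keratin of basal cells, reached 742 to 1465 CPM in secretory-gated cells. *Trp63*, also a marker of the basal gate, stood at 561, 530 and 672 CPM there, against 817, 708 and 911 CPM in basal-gated cells. *Cyp2f2*, a marker of the secretory gate, stood at 6931, 5908 and 6579 CPM in secretory-gated cells. In basal-gated cells it stood at 2484, 3135 and 3627 CPM. Endothelial-gated cells of libraries 2 and 3 numbered only 25 and 37, and those of library 2 held 1521 CPM of the club-cell secretoglobin *Scgb1a1*. Between 19.0% and 31.5% of the cells carried markers of more than 1 lineage and stayed out of the classes. Pairs of libraries shared 46 to 165 cell barcodes. The reporter and the Cre have no feature of their own in the tables, which leaves the sort unchecked here.

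Levels of the members fell into broad and class-restricted patterns. *Yap1* and *Tead1* were spread over nearly every class, *Wwtr1* was highest in stromal classes, *Ajuba* was highest in basal, suprabasal and secretory cells among the gated classes that gave a level in every library, *Ccn4* and *Ccn5* were fibroblast transcripts, and *Ccn1* and *Ccn2* were present in stroma and, to a degree that depended on the library, in epithelium. Levels are summed UMIs of a class as CPM, and they are compared for the same gene across classes only, since counts of transcript ends differ between genes for reasons other than abundance.

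**Figure D1:**
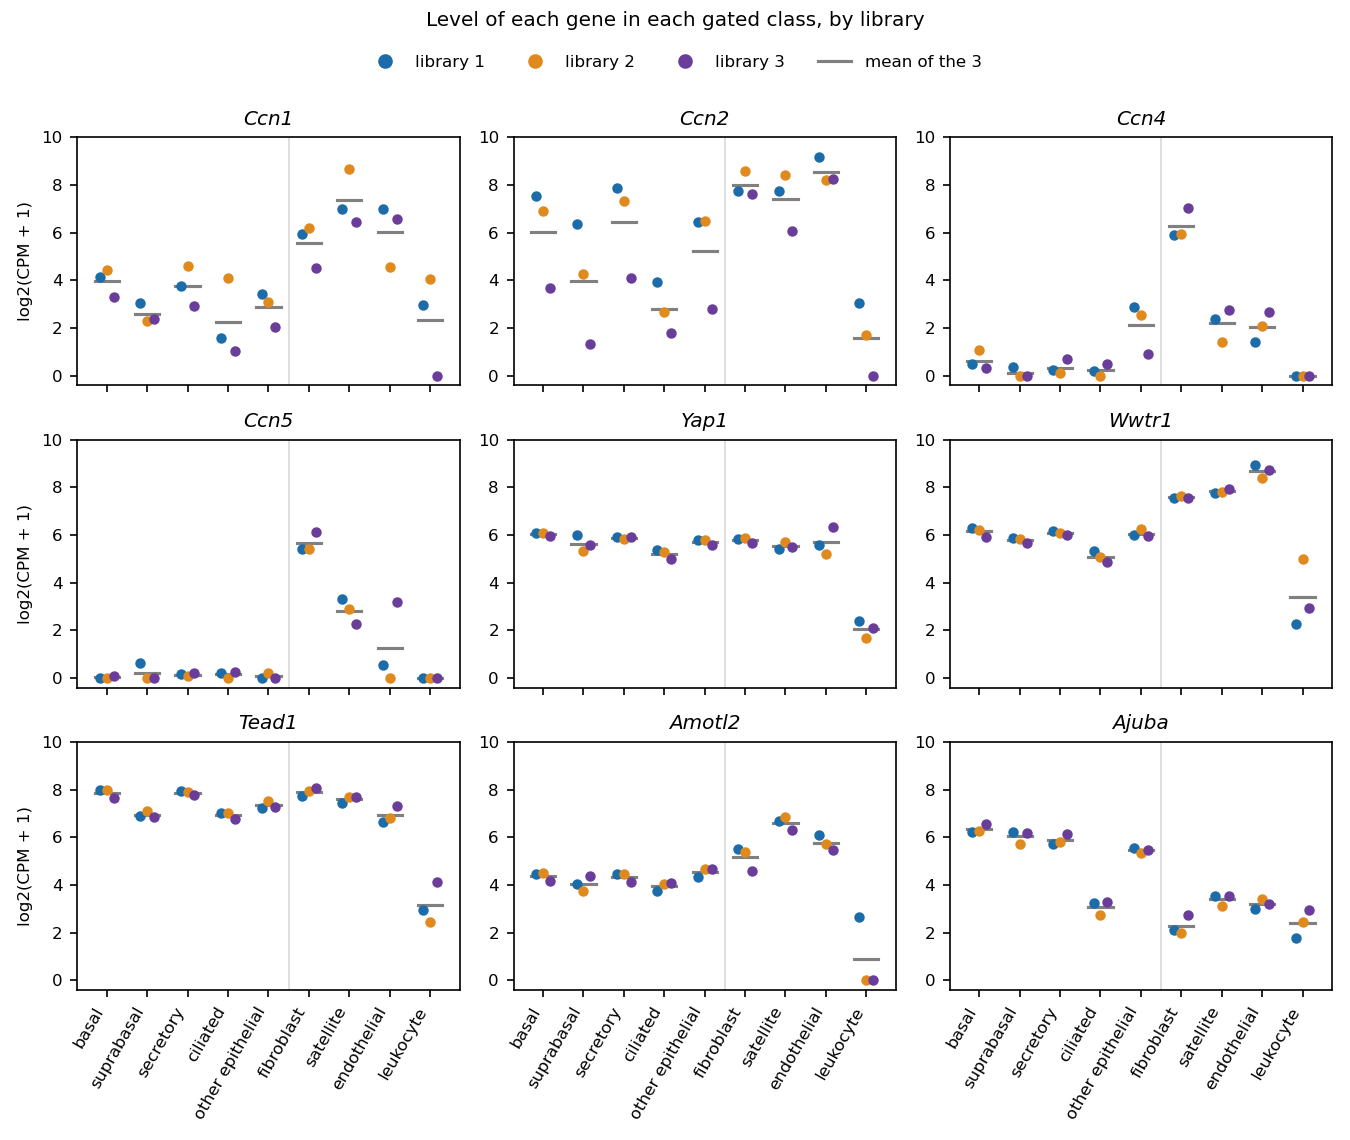
The level of each gene, as log2(CPM + 1) of the summed UMIs, is plotted for 9 gated classes with 1 point per library, and the grey bar is the mean of the 3 log2 values. *Ccn2* of library 3 lies below the other libraries in the epithelial classes left of the vertical line, whereas *Yap1* points nearly coincide in basal and secretory cells.

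*Ccn2* (ENSMUSG00000019997, chr10:24471333-24474900, forward strand) stood at 571, 293 and 303 CPM in endothelial-gated cells of libraries 1, 2 and 3, and at 214, 387 and 198 CPM in fibroblast-gated cells. Satellite-gated cells held 212, 342 and 66.2 CPM. Among epithelial classes, secretory-gated cells held 232, 158 and 16.3 CPM. Library 3 was thus the lowest in satellite and in secretory cells, and by more in the latter. Basal-gated cells held 185, 118 and 11.8 CPM. Suprabasal-gated cells, gated on squamous genes such as *Krt13*, held 81.1, 18.3 and 1.52 CPM, and ciliated cells 14.4, 5.46 and 2.50 CPM. The low end was taken by leukocyte-gated cells, at 7.19 and 2.22 CPM in libraries 1 and 2 and at 0 UMIs in library 3, where 3 UMIs would have been 9.98 CPM. By means, the order ran from endothelial (389 ± 158 CPM, SD, n = 3) through fibroblast (266 ± 105), satellite (207 ± 138), secretory (135 ± 110) and basal (105 ± 87.5) to suprabasal (33.6 ± 42.0), ciliated (7.45 ± 6.20) and leukocyte cells (3.14 ± 3.68), with the remaining epithelial cells (60.3 ± 47.2) between basal and suprabasal. The ranges over the libraries overlapped between every pair of neighbours in this order.

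*Ccn1* (ENSMUSG00000028195, chr3:145352720-145355738, reverse strand), an immediate early gene as well as a YAP target, stood at 126, 410 and 86.7 CPM in satellite-gated cells. Endothelial-gated cells held 125, 22.5 and 95.4 CPM, above the satellite cells in library 3, mural-gated cells of library 1 held 191 CPM, and fibroblast-gated cells 61.3, 73.2 and 21.9 CPM. The high value of library 2 in satellite cells came with a high level of genes that respond to tissue dissociation: the 21 genes of a dissociation list, none of them a member, summed to 23891 CPM there against 3606 and 3581 CPM in libraries 1 and 3, all 21 were highest in library 2, and *Fos* alone stood at 5562 against 292 and 340 CPM. The part of this response in the *Ccn1* level was not tested. Epithelial classes lay lower. Basal-gated cells held 16.7, 20.8 and 8.96 CPM of *Ccn1*, secretory-gated cells 12.6, 23.5 and 6.50 CPM, and suprabasal-gated cells 7.27, 3.95 and 4.19 CPM. The lowest fibroblast library was above the highest basal library, and below the fibroblasts all neighbouring classes overlapped.

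*Ccn4* (ENSMUSG00000005124, chr15:66763159-66795050, forward strand; WISP1) and *Ccn5* (ENSMUSG00000027656, chr2:163662753-163675066, forward strand; WISP2, the family member that lacks the carboxy-terminal domain) were low outside fibroblasts. *Ccn4* stood at 58.4, 60.2 and 130 CPM in fibroblast-gated cells and at 0.930, 0.739 and 0.536 CPM in all epithelial cells together. *Ccn5* stood at 42.1, 41.7 and 68.7 CPM in fibroblasts, and rested on 10, 3 and 22 UMIs in epithelium (0.111, 0.0376 and 0.114 CPM). Satellite-gated cells held 1.70 to 5.82 CPM of *Ccn4* and 3.74 to 9.04 CPM of *Ccn5*. Fibroblasts stood apart from the next class for both genes, and neither had a UMI in leukocyte-gated cells. Of the other CCN genes, *Ccn3* reached 2396 and 2549 CPM in the neuroendocrine-gated cells of libraries 1 and 2 (48 and 25 cells; library 3 held 1 such cell), against 57.0, 32.9 and 38.8 CPM in fibroblasts. *Ccn6* was near 0 throughout, with 15, 2 and 17 UMIs in all epithelial cells together, 7, 0 and 6 of them in ciliated cells.

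The coactivators differed from each other. *Yap1* (ENSMUSG00000053110, chr9:7932000-8004661, reverse strand) stood at 57.3, 57.4 and 57.4 CPM in epithelium as a whole and at 56.0, 57.9 and 50.1 CPM in fibroblasts. Basal-gated cells held 65.9, 66.1 and 60.5 CPM and ciliated cells 40.6, 38.0 and 30.6 CPM, and leukocytes held 2.22 to 4.31 CPM. *Wwtr1* (ENSMUSG00000027803, chr3:57363067-57483249, reverse strand) formed a staircase through the stroma. Endothelial-gated cells held 488, 331 and 422 CPM, satellite-gated cells 214, 225 and 240 CPM, and fibroblast-gated cells 188, 196 and 188 CPM. No library of one step overlapped with the next, and basal-gated cells followed at 78.2, 73.5 and 59.7 CPM. *Tead1* (ENSMUSG00000055320, chr7:112278522-112506014, forward strand) stood at 208, 246 and 266 CPM in fibroblasts and at 251, 250 and 197 CPM in basal-gated cells. Suprabasal-gated cells held less, 118, 136 and 115 CPM, and leukocytes 4.45 to 16.6 CPM.

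The junctional proteins were on opposite sides. *Amotl2* (ENSMUSG00000032531, chr9:102594867-102610617, forward strand) stood at 102, 114 and 78.4 CPM in satellite-gated cells, above every other class with cells in all 3 libraries, at 44.4, 41.1 and 23.0 CPM in fibroblasts and at 20.9, 21.8 and 16.9 CPM in basal-gated cells. *Ajuba* (ENSMUSG00000022178, chr14:54804927-54815015, reverse strand) stood at 74.5, 74.7 and 92.6 CPM in basal-gated cells, 73.8, 52.3 and 70.4 CPM in suprabasal-gated cells and 51.7, 54.4 and 68.6 CPM in secretory-gated cells. The remaining epithelial cells held 46.2, 39.97 and 43.6 CPM. Ciliated cells were lower, at 8.44, 5.68 and 8.75 CPM, near the 10.5, 7.66 and 10.6 CPM of satellite-gated cells, and neuroendocrine cells of libraries 1 and 2 held 0.936 and 1.60 CPM. Fibroblasts held 3.27, 2.93 and 5.66 CPM of *Ajuba*. The 71 mural-gated cells of library 1, the cells that wrap vessels, held 90.8 CPM of it. The other libraries held under 20 mural-gated cells each.

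Among the members, the spread between libraries in epithelium as a whole was largest for *Ccn2*, and it was smaller in the stroma. Over all epithelial cells *Ccn2* stood at 187, 127 and 13.3 CPM, so that library 1 was 14.0 times and library 2 was 9.56 times library 3. In basal-gated cells the ratios were 15.7 and 9.97, and in secretory-gated cells 14.2 and 9.68. The same ratios were 1.08 and 1.96 in fibroblasts and 1.89 and 0.967 in endothelial cells, with satellite cells between these and epithelium at 3.20 and 5.17. The dissociation list was highest in library 2 in satellite cells, as given above. Its sum was also highest in library 2 in fibroblasts (3047, 5268 and 2930 CPM), with 14 of the 21 genes highest there. In endothelial cells the sums lay closer together (3694, 4138 and 3680 CPM). Only 8 of the 21 genes were highest in library 2 there, and *Fos* was lowest in it (157, 61.1 and 232 CPM). The part of the list in these ratios was not tested. The fibroblast level of *Ccn2* was 1.15, 3.04 and 14.9 times the epithelial level within libraries 1, 2 and 3. For comparison, the fibroblast level of *Ccn1* was 5.25, 3.58 and 3.37 times the epithelial level, and that of *Wwtr1* 2.81, 2.93 and 3.12 times. With 1 library on one side, the difference between libraries has no replicate check.

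The low epithelial level of library 3 held under the other ways of drawing the classes. With tighter gates epithelial cells held 151, 104 and 11.4 CPM of *Ccn2*, and with looser gates 220, 148 and 18.8 CPM. With each cell thinned to 5000 UMIs and gated again, they held 234, 155 and 17.9 CPM. Cells with mixed markers also held less *Ccn2* in library 3, at 448, 343 and 50.2 CPM. Many of these were epithelial cells with UMIs of the matrix gene *Dcn* but few of *Col1a2*, and with *Dcn* left out of the fibroblast gate the epithelial levels were 243, 160 and 23.1 CPM. Which tissue held more *Ccn2* did depend on these choices in library 1, where epithelium stood above fibroblasts without *Dcn* (243 against 177 CPM), with looser gates (220 against 219 CPM) and with thinning (234 against 229 CPM). Under the literal wording of the quality limits this was so in libraries 1 and 2 (294 against 164 and 236 against 176 CPM), and library 3 kept more in fibroblasts (25.6 against 69.3 CPM). The dissociation list summed to 2683, 2913 and 2152 CPM in epithelium, with 16 of its 21 genes lowest in library 3. In basal-gated cells it summed to 3486, 2964 and 2163 CPM, and its part in the *Ccn2* level was not tested. Few genes were this far apart between libraries. Of 9830 genes at a mean of 10 CPM or more in the epithelium of libraries 1 and 2, 24 (0.244%) were at least 5 times lower in library 3 than in both, against 0 genes for library 1 and 1 for library 2. In secretory-gated cells the counts for libraries 1, 2 and 3 were 0, 2 and 9. In basal-gated cells they were 4, 34 and 10, so that library 2 had the most. Genes lower in library 3 in both classes beside *Ccn2*, named after their values were seen, were *Akr1c14*, a steroid-metabolising reductase, *Pdk4*, an inhibitor of pyruvate oxidation, *Qrfp*, a neuropeptide gene, and the unannotated *Gm56555*. In fibroblasts 10 of 9944 genes were this much lower in library 3, and *Ccn2* was not one of them.

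The lower level came with fewer positive cells. With each cell thinned to 5000 UMIs, a *Ccn2* UMI was counted in 26.4% of basal-gated cells of library 1 (95% Wilson interval 23.1 to 29.96, counting error only), 24.5% in library 2 (22.3 to 26.8) and 4.22% in library 3 (3.50 to 5.07). In secretory-gated cells the shares were 24.5% (23.0 to 26.0), 24.7% (22.9 to 26.6) and 6.38% (5.83 to 6.97). In fibroblasts they were 20.6% (18.7 to 22.6), 24.6% (20.7 to 29.1) and 16.9% (15.1 to 18.9). In satellite-gated cells they were 25.5% (20.2 to 31.6), 29.8% (24.5 to 35.7) and 15.3% (12.4 to 18.7). Library 3 thus had the lowest share in these 4 classes, as a description. In endothelial-gated cells the shares were 42.4%, 28.6% and 50%, the highest being that of library 3, with 18 cells (29.0 to 71.0). The intervals hold counting error of cells and not the spread between libraries, so no difference between libraries is read from them. Leukocytes, taken as cells that should lack the gene, gave 1.64% of 122 cells (0.451 to 5.78) and 3.70% of 27 cells (0.657 to 18.3) in libraries 1 and 2. In library 3 they gave 0% (0 of 21 cells, with an upper Wilson bound of 15.5%). Ciliated cells gave 3.49%, 1.37% and 1.01%, inside the leukocyte interval of each library. So few leukocytes do not set a background level. Within library 3, the share of secretory cells was above that of the ciliated cells (1.01%, 0.343 to 2.92, counting error only). Without thinning, the shares were 29.7%, 34.2% and 8.15% in basal-gated cells, at medians of 9035, 15344 and 12814 UMIs, and 7.41%, 2.17% and 0% in leukocytes, at medians of 13365, 8068.5 and 7647 UMIs.

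**Figure D2:**
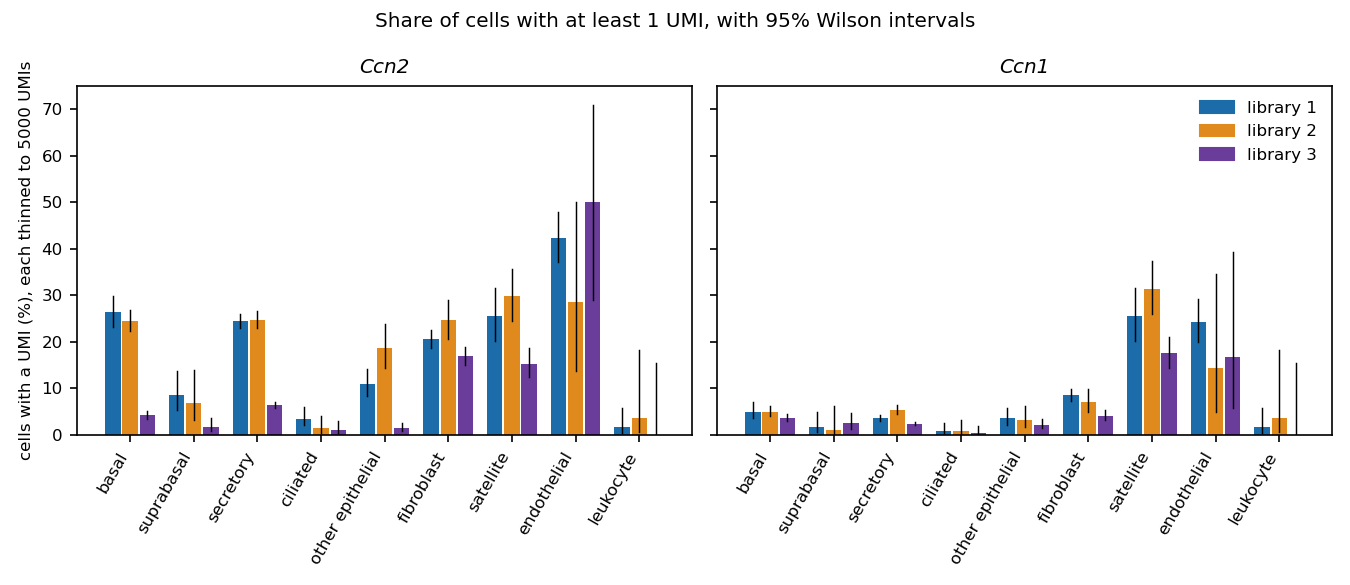
Bars give the percentage of cells with at least 1 UMI of *Ccn2* (left) or *Ccn1* (right) after each cell was thinned to 5000 UMIs, by class and library, and black lines are 95% Wilson intervals. The *Ccn2* bars of library 3 are short in basal (4.22%) and secretory cells (6.38%) and less so in fibroblasts (16.9%), and *Ccn1* bars are tallest in satellite and endothelial cells.

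*Ccn1* was counted in fewer epithelial cells. After thinning, 5.00%, 5.01% and 3.63% of basal-gated cells had a *Ccn1* UMI, and their intervals overlapped. In secretory-gated cells the shares were 3.67% (3.07 to 4.37), 5.41% (4.52 to 6.47) and 2.34% (2.01 to 2.72), with library 3 the lowest. The intervals hold counting error of cells only, so no difference between libraries is read from them. In satellite-gated cells the shares were 25.5%, 31.4% and 17.5%, and in endothelial-gated cells 24.2%, 14.3% and 16.7%, with intervals that overlapped in each library. Fibroblasts lay between, at 8.47%, 6.97% and 4.10%. Suprabasal shares of 1.72%, 1.12% and 2.49% and leukocyte shares of 1.64%, 3.70% and 0% were of a like size.

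*Ccn2* UMIs were concentrated in a minority of cells. In fibroblasts, where the mean was 1.15, 2.08 and 1.01 UMIs per thinned cell, the 10% of cells with most *Ccn2* held 89.4%, 91.4% and 93.0% of its UMIs, and single cells reached 106, 196 and 74 UMIs. In basal-gated cells of libraries 1 and 2 these 10% held 78.9% and 74.4%, and in secretory-gated cells 84.9% and 79.2%. Of basal- and secretory-gated cells together, 297 of 3914 in library 1 (7.59%, 6.80 to 8.46), 199 of 3445 in library 2 (5.78%, 5.05 to 6.61) and 25 of 9515 in library 3 (0.263%, 0.178 to 0.388) held at least 5 *Ccn2* UMIs. A few cells rich in the thyroid gene *Tg* were present, and without cells of 5 or more *Tg* UMIs the shares were 7.58%, 5.79% and 0.242%.

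The *Ccn2*-rich cells were set beside cells of the same classes and libraries without a *Ccn2* UMI, as a description, since *Ccn2* itself selected them. *Ccn1* stood at 46.5 against 9.10 CPM in library 1, 36.2 against 16.6 CPM in library 2 and 32.0 against 6.94 CPM in library 3. *Tead1* stood at 456 against 226 CPM and 389 against 237 CPM in libraries 1 and 2, and at 192 against 215 CPM in library 3. *Amotl2* stood at 41.8 against 19.2, 50.3 against 17.2 and 24.0 against 16.1 CPM. Libraries 1 and 2 thus had more *Ccn1*, *Tead1* and *Amotl2* in the *Ccn2*-rich cells. The log2 ratios of the coactivators were small, 0.25, 0.10 and 0.24 for *Yap1* and 0.31, 0.21 and 0.35 for *Wwtr1*, and *Ajuba* went from 0.43 and 0.16 to -0.37 in library 3. Each value of library 3 rests on 25 cells, so that no direction is read from it.

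Genes outside the pathway that stood farthest apart in libraries 1 and 2 were named after their values were seen. On the high side were *Akr1c14* (log2 ratios of 3.29, 2.83 and 0.45 in libraries 1, 2 and 3), *Qrfp* (2.90, 2.16 and 0.69), *Gfra1*, a receptor for glial-derived neurotrophic factor (2.37, 2.75 and 2.08), *Sdk1*, an adhesion protein (2.22, 2.47 and 1.37), and *Timp3*, a matrix-bound metalloproteinase inhibitor (2.09, 2.24 and 1.45). *Depp1* (2.57, 2.23 and -1.03) and *Bmp3*, a bone morphogenetic protein (2.26, 2.28 and -1.18), were as far apart in libraries 1 and 2. Their negative values in library 3 rest on few cells, and no direction is read from them. On the low side were the secreted products *Tff2* (-5.79, -4.92 and -4.14), *Sbpl* (-3.88, -4.01 and -4.39), *Lipf* (-3.85, -4.66 and -4.75), *Bpifa1* (-3.52, -3.59 and -4.98) and *Muc5b* (-4.62, -2.96 and -2.79). *Scgb1a1* stood at -2.67, -2.12 and -3.35. Of the keratins of basal cells, *Krt5* stood at -1.57, -1.69 and -0.64 and *Krt14* at -0.77, -0.73 and -0.10. *Dcn* stood higher (0.76, 1.31 and 1.26), whereas *Pdgfra* and *Pecam1* were at 0 to 3.37 CPM in both groups. Within basal- and secretory-gated cells, those with UMIs of the airway factor *Nkx2-1* and none of the squamous protease *Tmprss11a* held 440, 372 and 38.8 CPM of *Ccn2*. Cells with *Tmprss11a* and no *Nkx2-1* held 103, 77.0 and 10.0 CPM, cells with both 229, 142 and 20.3 CPM, and cells with neither 392, 245 and 21.7 CPM. The lowest level in each library was thus that of the cells with *Tmprss11a* alone.

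**Figure D3:**
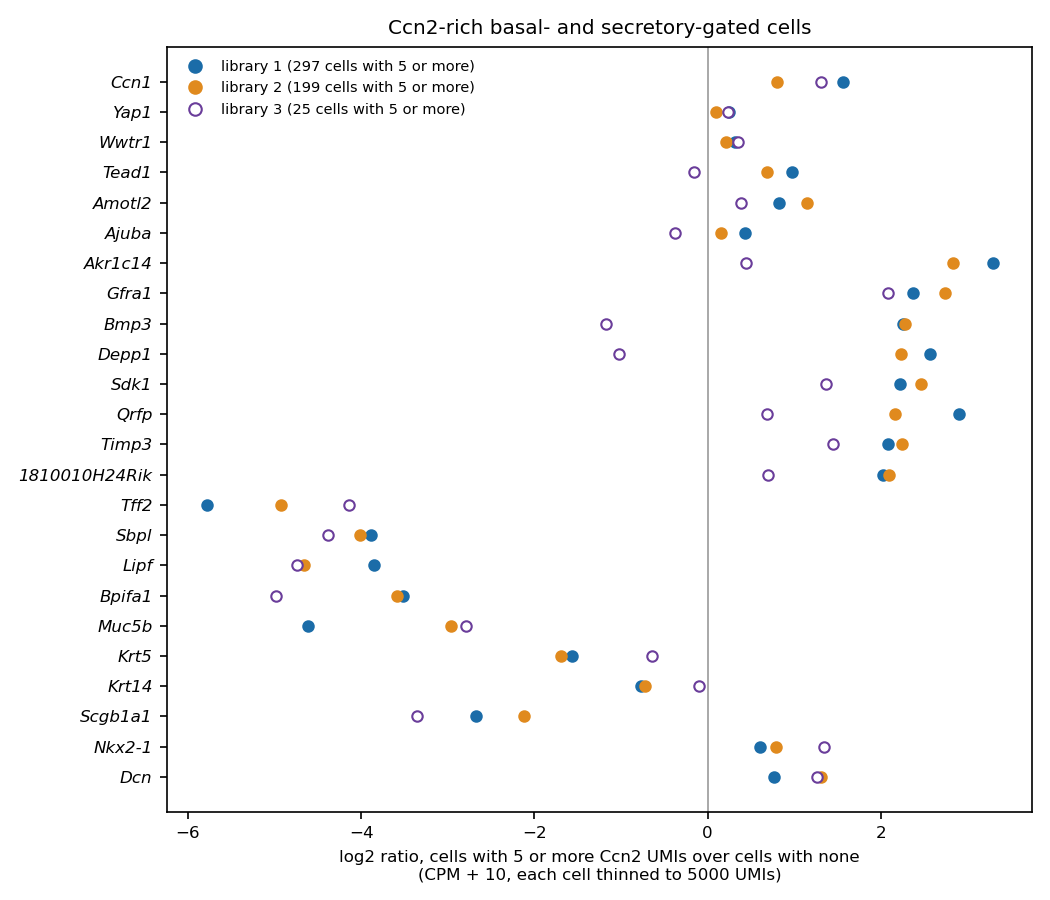
Log2 ratios of CPM + 10 between basal- and secretory-gated cells with at least 5 *Ccn2* UMIs and those with none are plotted per gene, 1 point per library, each cell thinned to 5000 UMIs and library 3 as open circles. *Ccn1* and *Amotl2* lie right of 0 in libraries 1 and 2, *Tff2* and *Bpifa1* far left, and *Akr1c14* is near 3 in libraries 1 and 2 and at 0.45 in library 3.

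Class differences of the members were tested on UMIs summed per library and class, with edgeR's quasi-likelihood test and Benjamini-Hochberg adjustment over all genes tested. Between epithelial and fibroblast cells most genes differ: 11238 of 18595 (60.4%) passed the adjusted threshold of 0.05. Of the 7 members read (all but *Ccn2* and *Ccn5*), 5 passed, a share near that background, and the same 5 passed with the library as a block (65.5% of all genes). *Ccn5* entered the fit through its fibroblast counts alone, so its test is not read and the levels above describe it. *Ccn4*, with 84, 59 and 103 epithelial UMIs, was lower in epithelium by a log2 fold change of -6.83 ± 0.45 (SE; edgeR, adjusted p = 1.4e-05). *Wwtr1* was lower by -1.54 ± 0.09 (edgeR, adjusted p = 9.9e-06) and *Ajuba* higher by 3.85 ± 0.27 (edgeR, adjusted p = 1.8e-05). These 3 genes, and *Ccn1* and *Amotl2* named next, were on the same side in each library. *Ccn1* was lower by -1.98 ± 0.53 (edgeR, adjusted p = 0.0142), but without library 1 its adjusted p was 0.115 and with tighter gates 0.0917. *Amotl2* was lower by -0.87 ± 0.24 (edgeR, adjusted p = 0.0151), and its adjusted p was 0.125 without library 1, 0.0801 without library 2 and 0.0897 under the literal wording of the quality limits. *Yap1* differed by 0.09 ± 0.09 (edgeR, adjusted p = 0.408) and *Tead1* by -0.13 ± 0.12 (edgeR, adjusted p = 0.382). *Ccn2*, described only, differed by -1.25 ± 0.78.

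**Figure D4:**
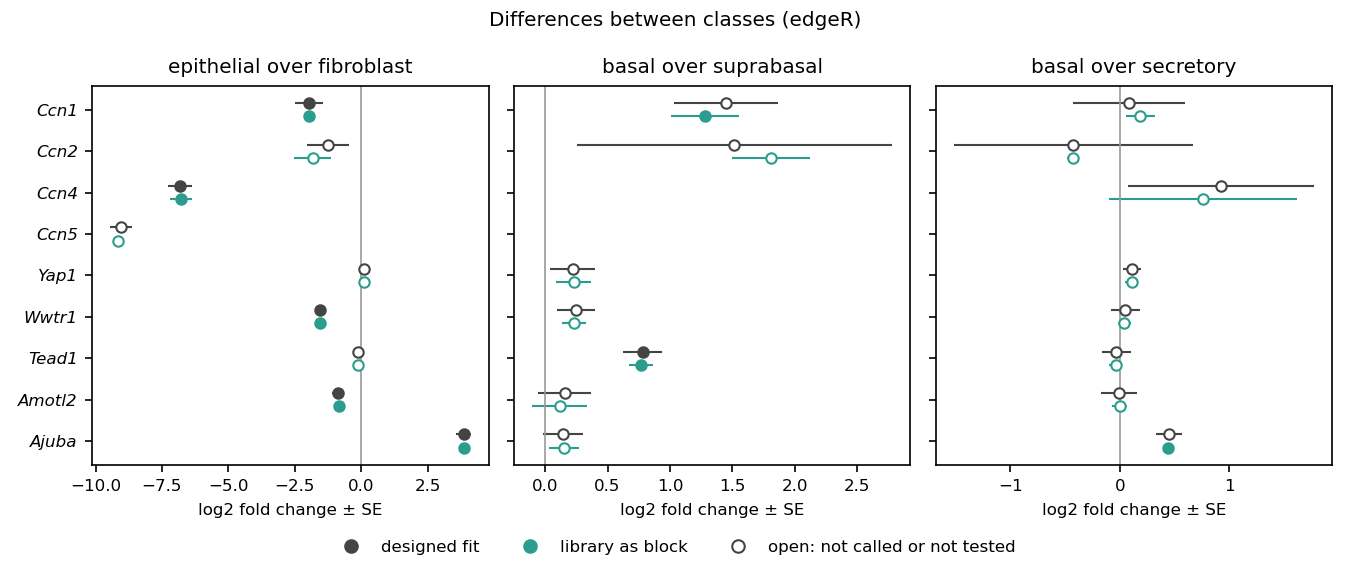
Log2 fold changes with their standard errors are plotted for 3 class comparisons, in the fit as designed (dark) and with the library as a block (green), with filled points for adjusted p under 0.05. *Ccn2*, and *Ccn5* in the first comparison, are described without a test and drawn open. *Ccn4* and *Ccn5* lie far left in epithelium against fibroblasts, *Tead1* lies right of 0 in basal against suprabasal cells, and *Ajuba* fills only with the block in basal against secretory cells.

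Other genes of the pathway were taken from a list of 28 regulators (kinases, scaffolds, TEADs and cofactors) and 16 target genes, none of them a member. Of 27 regulators tested between epithelium and fibroblasts, 10 were higher and 10 lower in epithelium, with a median log2 fold change of 0.19, and of 16 targets 6 were higher and 7 lower, with a median of -0.21. Over all 18595 genes 5853 were higher and 5385 lower (60.4% called), with a median of 0.08, so most genes differ here whatever their list. *Tead4*, a further TEAD factor, stood at 16.6, 17.1 and 19.1 CPM in epithelium and at 0.654, 0 and 0.347 CPM in fibroblasts. *Wwc1*, the scaffold KIBRA, stood at 149, 132 and 124 CPM against 4.05, 2.74 and 3.12 CPM. In the other direction, *Foxf2*, a forkhead factor of mesenchyme, stood at 67.3 ± 12.7 CPM (SD, n = 3) in fibroblasts and 0.197 ± 0.152 in epithelium. *Dchs1*, the protocadherin ligand of Fat4, stood at 19.4 ± 2.15 against 0.0549 ± 0.0547 CPM.

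Basal-gated cells were set against suprabasal-gated cells, which were gated on squamous genes such as *Krt13*. The suprabasal-gated cells also held more *Krt5*, at 2542, 1932 and 4135 CPM against 1378, 890 and 2240 CPM in basal-gated cells. They held *Trp63* at 647, 390 and 455 CPM, against 817, 708 and 911 CPM. The comparison is thus not with cells that lack basal markers. In this comparison 717 of 13330 genes (5.38%) passed, and with the library as a block, which pairs the classes of 1 animal pool, 3277 (24.6%). Of the 6 members read, 1 passed. *Tead1* was higher in basal cells, by 0.78 ± 0.15 (edgeR, adjusted p = 0.0362; with the block 0.77 ± 0.10, adjusted p = 0.00339). It stood higher in all 3 libraries, and leaving out any library without the block moved its adjusted p to between 0.0698 and 0.233. *Ccn1* differed by 1.45 ± 0.41 (edgeR, adjusted p = 0.0861) and was called with the block, at 1.28 ± 0.27 (edgeR, adjusted p = 0.0164). *Yap1*, *Wwtr1*, *Amotl2* and *Ajuba* differed by 0.14 to 0.25 and did not pass in either fit. *Ccn4* and *Ccn5* had too few UMIs to be tested, and *Ccn2* differed by 1.52 ± 1.26, as a description. Of the target genes 3 of 14 passed, all higher in basal cells (3.19% of all genes were called higher), with a median of 0.60 against 0.00 over all genes, and of the regulators 2 of 26 passed, both higher. With the block the counts were 6 of 14 targets, all higher (10.9% of all genes), and, of 26 regulators, 6 higher and 1 lower. *Arhgef17*, a RhoA exchange factor, stood at 31.8 ± 1.54 against 13.3 ± 3.57 CPM (SD, n = 3; edgeR, adjusted p = 0.0236) and *Rbms3*, an RNA-binding protein, at 744 ± 14.0 against 333 ± 36.0 CPM (edgeR, adjusted p = 0.0142).

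Basal-gated cells were then set against secretory-gated cells, with which they shared *Krt5*, *Trp63* and *Cyp2f2* as given above. Here 411 of 16602 genes (2.48%) passed, and none of the 7 members read was called. *Ajuba* differed by 0.45 ± 0.12 (edgeR, adjusted p = 0.109) and was higher in basal cells with the block, by 0.44 ± 0.05 (edgeR, adjusted p = 0.0013; 3603 genes or 21.7% called), and in each of the 3 libraries. *Ccn1* differed by 0.09 ± 0.51 and by 0.19 ± 0.13 with the block. It passed only with cells thinned and the block together (0.62, edgeR, adjusted p = 0.00166), where 3858 of 14047 genes (27.5%) passed. That fit was chosen after seeing the data, so no call is read from it. *Yap1*, *Wwtr1*, *Tead1* and *Amotl2* differed by -0.03 to 0.11 and did not pass in either fit, and *Ccn4* differed by 0.92 ± 0.85. *Ccn5* was not tested. No regulator or target of the list passed without the block. With it 4 of 26 regulators were higher and 2 lower in basal cells, and 4 of 14 targets higher and 1 lower. Among them *F3*, tissue factor, stood at 888 ± 207 CPM in basal and 1537 ± 270 CPM in secretory cells (SD, n = 3), and *Wwc1* at 111 ± 9.38 against 139 ± 12.7 CPM. In the other direction *Asap1*, a regulator of ARF GTPases, stood at 150.1 ± 18.3 against 106 ± 12.3 CPM and *Igfbp3*, a binding protein of insulin-like growth factors, at 278.5 ± 125 against 193 ± 72.1 CPM.

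The study separated its cells by *Lrig1*, and the members were compared between cells with and without a *Lrig1* UMI inside a class. The make-up of the basal gate can still differ between these groups, which was not tested. Cells with a *Lrig1* UMI were also the deeper ones, with medians of 13140, 17814 and 15504.5 UMIs against 6318, 11112 and 8924 UMIs in basal-gated cells. *Ccn2* stood at 137, 106 and 11.0 CPM in basal-gated cells with a *Lrig1* UMI and at 230, 146 and 13.2 CPM in those without, lower in 3 of 3 libraries. *Ajuba* stood at 70.5, 71.1 and 89.6 CPM against 78.3, 83.2 and 97.8 CPM, also lower in 3 of 3. In the edgeR fit without the block none of 14008 genes passed (0%, with 678 at an unadjusted p under 0.05, and 7 called by DESeq2). With the block 2106 genes (15.0%) passed. *Ccn2* was then lower by -0.58 ± 0.08 (edgeR, adjusted p = 5.1e-04) and, with cells also thinned to 5000 UMIs, by -0.44 (edgeR, adjusted p = 0.00217). With thinning and the block, 1594 of 12716 genes (12.5%) passed. That fit was chosen after seeing the data, so no call is read from it. In fits with thinned cells, classes and *Lrig1* status were drawn again from the thinned counts. Basal-gated cells with a *Lrig1* UMI in library 2 then numbered 701 of 2059, in place of 945 of 1525, so these fits hold other cells. *Ajuba* was lower by -0.22 ± 0.06 with the block (edgeR, adjusted p = 0.0246), and with thinning and the block by -0.16 (edgeR, adjusted p = 0.07), which does not pass. *Ccn1* (adjusted p = 0.0534, edgeR with the block) and *Amotl2* (0.0707) stood lower in 3 of 3 libraries without passing. *Yap1* and *Wwtr1* differed by -0.02 and -0.01 without the block. *Tead1* differed by 0.05 and stood higher in 3 of 3 libraries. It passed only with thinning and the block together (0.13, edgeR, adjusted p = 0.0293), the fit from which no call is read. Of the pathway list, 0 of 26 regulators and 0 of 14 targets passed without the block. With it 1 regulator and 2 targets, *Igfbp3* and *Nt5e*, were lower, and 1 target, *Dock5*, was higher.

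In fibroblast-gated cells *Ccn2* stood at 198, 291 and 127 CPM with and at 221, 446 and 249 CPM without a *Lrig1* UMI, again lower in 3 of 3 libraries. None of 13958 genes passed without the block (0%, with 189 at an unadjusted p under 0.05, and 0 by DESeq2), and 20 (0.143%) passed with it. *Ccn2* was not among them (-0.58 ± 0.12, edgeR, adjusted p = 0.113). It passed when *Dcn* was left out of the gate, with the block (-0.69, edgeR, adjusted p = 0.0195). With thinned cells and the block it did not (-0.22, edgeR, adjusted p = 0.957). Both of these fits were chosen after seeing the data, so no call is read from them. *Ccn1* was lower in 2 of 3 libraries, and higher in library 2 at 115 against 47.6 CPM. Whether the *Lrig1* difference itself differed between fibroblasts and basal cells was tested as an interaction, and none of 15210 genes passed in edgeR with or without the block (395 at an unadjusted p under 0.05, and 0 by DESeq2). For *Ccn2* the interaction was 0.07 ± 1.24.

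**Figure D5:**
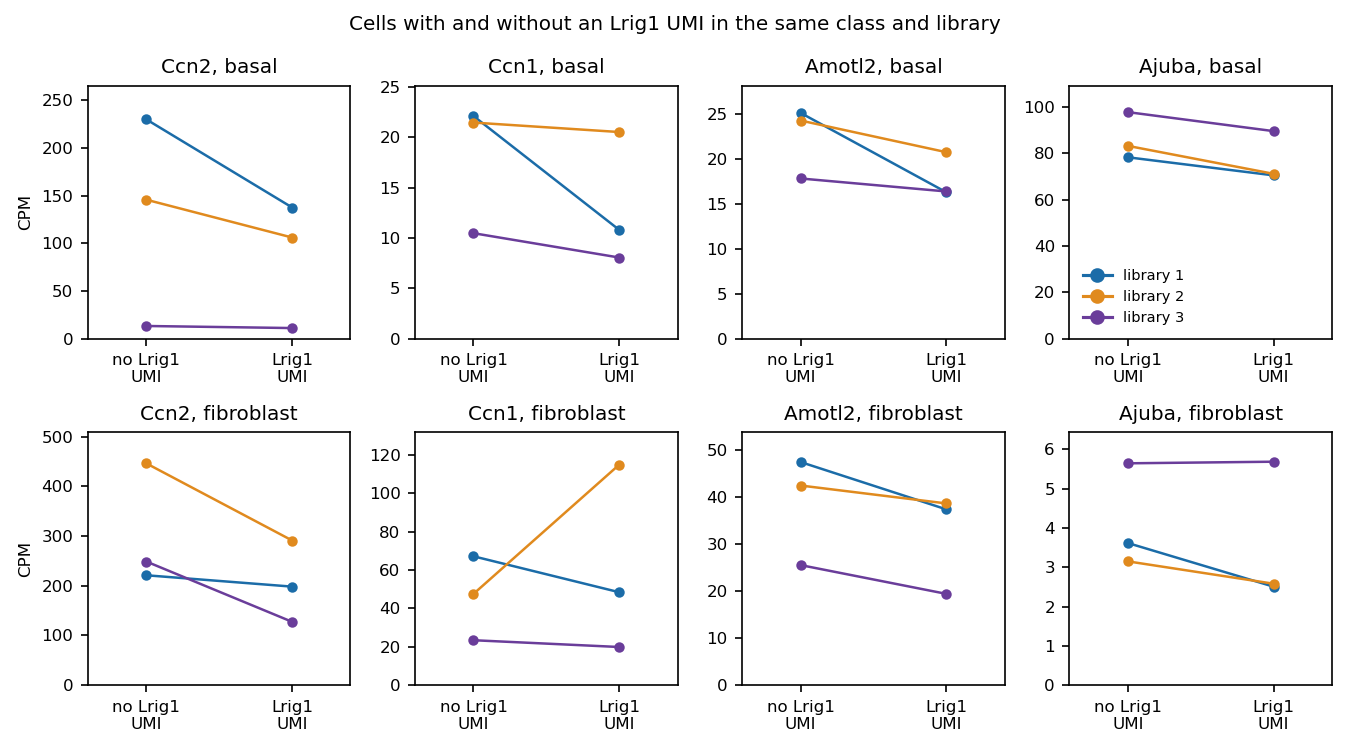
CPM of *Ccn2*, *Ccn1*, *Amotl2* and *Ajuba* is plotted for cells without (left) and with a *Lrig1* UMI (right) in basal-gated (top) and fibroblast-gated cells (bottom), with a line per library. The 3 *Ccn2* lines fall in both classes, from 230 to 137 CPM in basal-gated cells of library 1, and the *Ccn1* line of library 2 rises in fibroblasts.

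Over the 30 pairs of class and library with at least 20 cells, the genes whose log2(CPM + 1) followed that of *Ccn2* most closely among 14513 genes were *Ctdsp2* (Pearson r = 0.904), *Osmr* (0.887) and *Sulf1* (0.862), followed by *Eda2r*, *Adamts1*, *Sp1*, *Plscr4*, *Phldb2*, *Heph* and *Casp12* (0.840). *Ctdsp2* encodes a phosphatase, *Osmr* the receptor of oncostatin M and *Sulf1* a heparan sulfate sulfatase. For *Ccn1* the closest were *Samd4* (0.882), *Gm15270*, *Ctdsp2* (0.862), *Ice1*, *Grb10*, *Ing3*, *Sulf1*, *Gm26944*, *Klf9* and *Trpm7* (0.847), so that *Ctdsp2* and *Sulf1* stood on both lists. Among the members, *Ccn2* was closest to *Wwtr1* (0.804) and *Ccn1* (0.802), then *Amotl2* (0.742), *Yap1* (0.628) and *Tead1* (0.534), and it was farthest from *Ajuba* (0.149). These are descriptions, since the pairs share 3 libraries and 9 of the classes recur in each of them.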

How the data were processed

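Cell Ranger 8.0.1 with the GRCm39 genome gave the UMI counts per gene and barcode that the authors deposited for each library, raw and as whole numbers (Chromium GEM-X 3' v4 chemistry, which counts transcript ends). Quality limits and doublet removal of the authors are not applied in the deposited counts, and their cell annotation was not used here.

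Kept barcodes had 500 to 8000 genes, a total of 1000 to 40000 UMIs and a mitochondrial share of 8% or less, with genes and UMIs read the other way round from the wording of the study's methods, whose literal reading is an alternative. Simulated doublets were used to score barcodes on 30 components, and 1030, 326 and 3495 were removed (0.4% per 1000 barcodes). A cell entered a lineage with at least 3 UMIs over at least 2 of its markers, provided that the runner-up lineage held at most 20% as many. Epithelial cells were divided into ciliated, neuroendocrine, suprabasal, secretory and basal cells by further marker UMIs, and the rest were left as other epithelial cells. Classes with under 20 cells in a library were left out there. The members and the gene lists were chosen with earlier results of these data known. Genes named beside the members are, of the pathway list, the 2 largest rises and falls past the threshold at 10 CPM or more in each comparison, and the 10 genes most like *Ccn2* and *Ccn1*. Genes of *Ccn2*-rich cells and of library 3 were named after their values were seen, as were *Tg*, *Krt5*, *Krt14*, *Nkx2-1* and *Tmprss11a*.

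UMIs were summed per library and class and tested with edgeR 4.0.16 in R 4.3.3 (TMM, filterByExpr, glmQLFit, glmQLFTest, two-sided, Benjamini-Hochberg, threshold 0.05). Same-numbered sums come from the same pool of animals, and their deviations from the class means correlated by 0.198 to 0.755 over 15 pairs, so the library also entered as a block. DESeq2 1.42.0, other filters, gates and limits, thinning and leaving out each library were alternatives. For thinned levels and tests, classes and *Lrig1* status were drawn again from the thinned counts. For shares and counts per cell after thinning, and for *Ccn2*-rich cells, classes came from all UMIs. Leaving *Dcn* out of the fibroblast gate, and pairing the block with it or with thinning, were chosen after seeing the data. Scripts were checked on simulated counts. Promoters came from GRCm39 with GENCODE vM39, and that of 1 member is not reported here.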

Additional observations from a re-analysis of the deposited data

How the results depend on the processing

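Of 668 member tests in the alternatives, 643 kept the side of the threshold, 17 passed only in the alternative and 8 passed only in the fit as designed. There were 80 changes of sign where neither fit made a call. Most of these tests were uncalled in the fit as designed, so that keeping the side mostly meant staying uncalled. The 8 lost calls were those of *Ccn1* and *Amotl2* between epithelium and fibroblasts and of *Tead1* between basal and suprabasal cells. Of 783 levels, 718 moved by less than 1 SD between libraries. The 718 include 90 levels for each library left out. Leaving out a library cannot move a mean over so few libraries by 1 SD, so those levels check nothing. Of the 65 levels that moved further, 31 did so under the literal quality limits. These limits put *Ccn2* in fibroblasts at 136 CPM in place of 266 CPM and left 6567 genes between epithelium and fibroblasts.

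Counts of called genes moved more. Basal against suprabasal cells gave 717 genes, and 1674 with DESeq2, 3277 with the replicate block, 2302 with thinned cells, 4355 with both thinning and the block, 1406 without *Dcn* in the gate, 3999 with that and the block, and 67 to 118 when a library was left out. Basal against secretory cells gave 411, and 1490 with DESeq2, 3603 with the block, 3858 with thinning and the block, 3897 without *Dcn* and with the block, 165 under the literal limits, 161 with strict gates, and 0 to 286 when a library was left out (0 without library 1, 1 without library 2). The *Lrig1* split of basal cells gave 0, and 7 with DESeq2, 461 under the literal limits, 2106 with the block, 2003 without *Dcn* and with the block, and 1594 with thinning and the block. In fibroblasts it gave 0, and 20, 27 and 7 with the block alone, with the block and no *Dcn*, and with the block and thinning. The cause of these shifts was not tested. Another size factor, no filter on low counts, looser gates and keeping doublets moved no count by over 1.5 times. Beside the members named with it, the block changed no other member's call that is read, and of the pathway list it left 11 regulators and 5 targets higher in epithelium than in fibroblasts, in place of 10 and 6. *Ccn4* and *Ccn5* had few UMIs or none in endothelial- and leukocyte-gated cells, and *Ccn5* had few in epithelium as well (10, 3 and 22 UMIs). The number of cells limits the endothelial and leukocyte values of libraries 2 and 3.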
